A study of Sus scrofa with 10 samples.

Results

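The mitochondrial genome of the pig is a small circle that carries 37 genes, and all of them were followed in nuclear RNA of sorted minipig (Sus scrofa) cardiomyocytes. The members were every row placed on the mitochondrial sequence MT in the abundance tables, 37 of 35670 gene identifiers, and each matched a mitochondrial gene of the Sscrofa11.1 RefSeq table by its start and end. They comprise 13 protein-coding genes, 2 ribosomal RNA (rRNA) genes and 22 transfer RNA (tRNA) genes, with identifiers running from ENSSSCG00000018060 to ENSSSCG00000018096 in their order on the circle. The series had 10 libraries in 3 groups. DOCA plus JK07 had 3 libraries (numbers 8 to 10), DOCA alone had 2 (numbers 6 and 7) and the control group, given phosphate-buffered saline, had 5 (numbers 1 to 5). All groups were labelled wild type, and the tissue was labelled heart. DOCA is deoxycorticosterone acetate, a mineralocorticoid that makes the kidney retain salt and drives up blood pressure. JK07 is, per the series title, an ERBB4 agonist, and ERBB4 is a neuregulin receptor of cardiomyocytes. Chamber, doses, treatment times and ages are not given in the sources used here. Whether each library stands for a different animal is not in the labels, and a p-value here covers no more than the spread among the libraries, which may be technical.

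Mitochondrial DNA is transcribed inside the organelle by its own RNA polymerase, POLRMT, from both strands as long precursors that cover many genes. The tRNA genes sit between the other genes like punctuation, and cutting the precursor at the tRNAs releases the rRNAs and the messenger RNAs. Every mitochondrially encoded protein is a core subunit of a respiratory complex or of ATP synthase, and the remaining subunits of those complexes come from nuclear genes. The heart depends on this machinery for its ATP, and cardiomyocytes are packed with mitochondria. The molecule sequenced was labelled nuclear RNA, and how much mitochondrial RNA was carried along with the nuclei of each library was not measured in the files used here. In bulk samples of this kind, fewer cells of a type and less RNA per cell cannot be told apart.

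The coding capacity is split unevenly between complexes and strands. Complex I, the NADH dehydrogenase that passes electrons to ubiquinone, has 7 mitochondrially encoded subunits (ND1, ND2, ND3, ND4L, ND4, ND5 and ND6). Complex III, which passes them on to cytochrome c, has 1 (CYTB, cytochrome b), complex IV, the cytochrome c oxidase, has 3 (COX1, COX2 and COX3), and complex V, the ATP synthase, has 2 (ATP6 and ATP8). The plus strand of the annotation carries 12 of the 13 protein-coding genes, both rRNA genes and 14 tRNA genes. The minus strand carries ND6 and 8 tRNA genes. The circle is tightly packed, and some neighbours share bases: ATP8 and ATP6 overlap by 43 bases, ND5 and ND6, which lie on opposite strands, by 17, and ND4L and ND4 by 7. The sources used here do not give the strand setting of the counting, so reads of opposite strands cannot be told apart, and near-identical copies of mitochondrial sequence in the nuclear genome can share reads with any member.

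Mitochondrial counts made up 4.40%, 4.91% and 8.26% of the counts outside the ribosomal RNA scaffolds in the DOCA plus JK07 libraries 8, 9 and 10. They made up 2.58% and 0.488% in DOCA libraries 6 and 7, and 4.63%, 4.87%, 4.58%, 5.57% and 3.69% in control libraries 1 to 5. Both DOCA libraries lay below every control library and every DOCA plus JK07 library, whereas DOCA plus JK07 and control overlapped. In summed counts over the 37 genes this was 593667, 645384 and 813468 with DOCA plus JK07, 182061 and 16155 with DOCA, and 340451 to 669767 in control. Library 7 held far fewer mitochondrial counts than library 6, which was itself lower than any library outside the DOCA group.

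Depth moved with the DOCA group. Total counts ranged from 28.1 to 106 M per library, of which 2 scaffolds holding nuclear rRNA genes took 77.6% to 86.2% in DOCA plus JK07, 90.8% and 88.2% in DOCA libraries 6 and 7, and 82.1% to 86.3% in control. Leaving these scaffolds and the mitochondrial genome aside, 9.03 to 12.9 M counts were left with DOCA plus JK07, 6.87 and 3.30 M in DOCA libraries 6 and 7 and 8.67 to 13.9 M in control. Of the 35670 identifiers, 1569 were listed at 0 in both DOCA libraries and above 0 in the other 8. Of the deposited coverage values above 0, only 3.96% were under 1, and whether genes listed at 0 fell short of a coverage limit was not tested. The sorted cells carried cardiomyocyte markers in every group: 12 of 14 listed markers were named in the files, none was at 0 in a whole group, and their summed level was 5300 to 8686 CPM (counts per M counts of scaled library size) with DOCA plus JK07, 3822 to 5971 CPM with DOCA and 4498 to 5464 CPM in control. Of the 12 cardiomyocyte markers, 2 were called lower in DOCA against control and 0 higher, where 19.7% of all genes tested were called lower and 5.73% higher. MYH6, TNNC1, MYL4, PLN and CKM were lower in both DOCA libraries than in every control library, and TNNT2 was higher. Over all genes tested, 27.6% lay below control in this way and 10.2% above. PLN had 1.89 and 1.30 CPM in DOCA libraries 6 and 7 and 10.08 to 21.98 CPM in control. TNNT2 had 525 and 409 CPM in DOCA libraries 6 and 7 and 238 to 300 CPM in control. Summed markers of fibroblasts, endothelial cells, macrophages and mural cells overlapped between DOCA and control. Among single markers, LUM and ABCA8 of fibroblasts and TEK and EMCN of endothelial cells were lower in both DOCA libraries than in every control library. The same held for MRC1 and LYVE1 of macrophages and RGS5 of mural cells, and the other markers of these cell types overlapped. Fibroblast markers summed to 609 to 1531 CPM with DOCA plus JK07, 563 to 2201 CPM with DOCA and 617 to 2346 CPM in control. Called lower in DOCA against control were 1 of 8 fibroblast, 1 of 8 endothelial, 1 of 7 macrophage and 1 of 6 mural markers, against 19.7% of all genes tested. None of these markers was called higher, against 5.73% of all genes tested. EMCN of endothelial cells and LYVE1 of macrophages were listed at 0 in both DOCA libraries, LYVE1 also in DOCA plus JK07 library 10. The 5 lymphocyte markers summed to 0.951 to 2.45 CPM with DOCA plus JK07, 0 CPM in both DOCA libraries and 1.11 to 1.93 CPM in control, but MS4A1 and CD79A were at 0 in all 10 libraries and CD3E was also at 0 in every control library. The part of depth, rRNA content and cell makeup in the results that follow was not tested.

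The 2 rRNA genes gave most of the mitochondrial counts in all libraries. They encode the RNA scaffolds of the small and the large subunit of the mitochondrial ribosome, which translates the 13 mitochondrial messenger RNAs. The shorter gene (960 bp, positions 1246 to 2205, plus strand) had 5282, 5569.6 and 9959 CPM in the DOCA plus JK07 libraries, 3889 and 359 CPM in the DOCA libraries and 4434, 5874, 4845, 5159.9 and 3419 CPM in the control libraries. DOCA library 6 lay inside the control range and library 7 lay far below it, so the groups overlapped. The longer gene (1571 bp, positions 2274 to 3844, plus strand) had 1172, 1321 and 1773 CPM in the DOCA plus JK07 libraries, 611 and 110.3 CPM in the DOCA libraries and 1258, 816, 1259.7, 1827 and 1237 CPM in the control libraries. Here both DOCA libraries lay below every control library, library 7 again being the lowest, and DOCA plus JK07 overlapped with control.

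Among complex I subunits, ND1 and ND2 lie first on the circle after the rRNA genes. They are membrane subunits of the proton-pumping arm, ND1 at the site where ubiquinone enters. ND1 (positions 3922 to 4876) had 16.1, 15.3 and 36.6 CPM in the DOCA plus JK07 libraries, 1.79 and 0.736 CPM in the DOCA libraries and 23.7, 19.99, 11.4, 17.4 and 10.3 CPM in the control libraries. ND2 (positions 5087 to 6128) had 21.98, 25.7 and 46.02 CPM in the DOCA plus JK07 libraries, 2.99 and 0.803 CPM in the DOCA libraries and 27.3, 26.2, 13.8, 20.2 and 11.9 CPM in the control libraries. In both genes the DOCA libraries were below all others, with library 7 lower than library 6, and DOCA plus JK07 library 10 was the highest of all 10. The counts behind these DOCA values were small: 70 and 22 for ND1 and 117 and 24 for ND2.

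ND3, ND4L and ND4 lie next to each other further along the plus strand and also build the membrane arm. ND3 (positions 10653 to 10998) had 7.78, 7.52 and 22.1 CPM in the DOCA plus JK07 libraries, 2.18 and 0.903 CPM in the DOCA libraries and 11.3, 12.5, 5.59, 8.40 and 5.22 CPM in the control libraries. ND4L (positions 11069 to 11365) had 11.4, 11.9 and 20.4 CPM in the DOCA plus JK07 libraries, 2.05 and 1.71 CPM in the DOCA libraries and 17.8, 12.997, 7.33, 12.5 and 8.38 CPM in the control libraries. ND4 (positions 11359 to 12736) had 91.6, 98.98 and 202 CPM in the DOCA plus JK07 libraries, 20.99 and 6.89 CPM in the DOCA libraries and 119.5, 108, 59.6, 91.1 and 53.8 CPM in the control libraries. None of the 3 genes had a DOCA library within the range of another group, and for ND4L the DOCA libraries were close to each other.

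ND5 and ND6 meet tail to tail, ND5 on the plus and ND6 on the minus strand. ND5 (positions 12935 to 14755) is the longest protein-coding gene and had 99.4, 104 and 174 CPM in the DOCA plus JK07 libraries, 26.003 and 14.2 CPM in the DOCA libraries and 123, 127, 68.9, 109 and 66.6 CPM in the control libraries. ND6 (positions 14739 to 15266) had 20.8, 21.1 and 42.2 CPM in the DOCA plus JK07 libraries, 6.71 and 4.48 CPM in the DOCA libraries and 25.5, 22.2, 11.4, 20.8 and 12.99 CPM in the control libraries. The DOCA libraries were again the lowest, but they were nearer to the other groups than for ND1 and ND2: DOCA library 6 had 262 counts of ND6, against 853 to 1926 in control.

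CYTB (positions 15342 to 16481) encodes the only complex III subunit made in mitochondria. It had 63.2, 60.5 and 119.9 CPM in the DOCA plus JK07 libraries, 10.1 and 4.15 CPM in the DOCA libraries and 65.5, 73.8, 34.5, 67.8 and 29.7 CPM in the control libraries. Both DOCA libraries were below every other library, and library 10 was the highest.

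The complex IV genes encode its catalytic core: COX1 carries the site where oxygen is reduced, COX2 receives electrons from cytochrome c, and COX3 is the third core subunit. COX1 (positions 6511 to 8055) had 243, 245 and 547 CPM in the DOCA plus JK07 libraries, 46.1 and 17.6 CPM in the DOCA libraries and 265, 282, 194, 349.9 and 179 CPM in the control libraries. COX2 (positions 8203 to 8890) had 51.5, 53.1 and 105 CPM in the DOCA plus JK07 libraries, 5.99 and 3.14 CPM in the DOCA libraries and 58.3, 69.3, 33.5, 58.2 and 30.3 CPM in the control libraries. COX3 (positions 9800 to 10583) had 122, 124 and 292 CPM in the DOCA plus JK07 libraries, 19.04 and 11.11 CPM in the DOCA libraries and 125, 156, 85.1, 129.7 and 73.4 CPM in the control libraries. For all 3 the highest DOCA value was below the lowest control value, and the DOCA plus JK07 libraries 8 and 9 lay within the control range while library 10 lay above it.

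The complex V genes ATP8 and ATP6 overlap on the plus strand and encode membrane subunits of ATP synthase, ATP6 forming part of the proton channel. ATP8 (positions 8959 to 9162) had 3.53, 4.75 and 7.46 CPM in the DOCA plus JK07 libraries, 0.358 and 0.134 CPM in the DOCA libraries and 4.12, 5.14, 1.76, 3.48 and 2.06 CPM in the control libraries. ATP6 (positions 9120 to 9800) had 90.6, 103 and 198 CPM in the DOCA plus JK07 libraries, 12.8 and 4.42 CPM in the DOCA libraries and 102, 104, 45.6, 79.3 and 37.8 CPM in the control libraries. The DOCA libraries were the lowest for both, with only 14 and 4 counts of ATP8, so that its level in DOCA is imprecise. Because the genes overlap and lie on the same transcript, their split by the counting is uncertain.

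**Figure D1:**
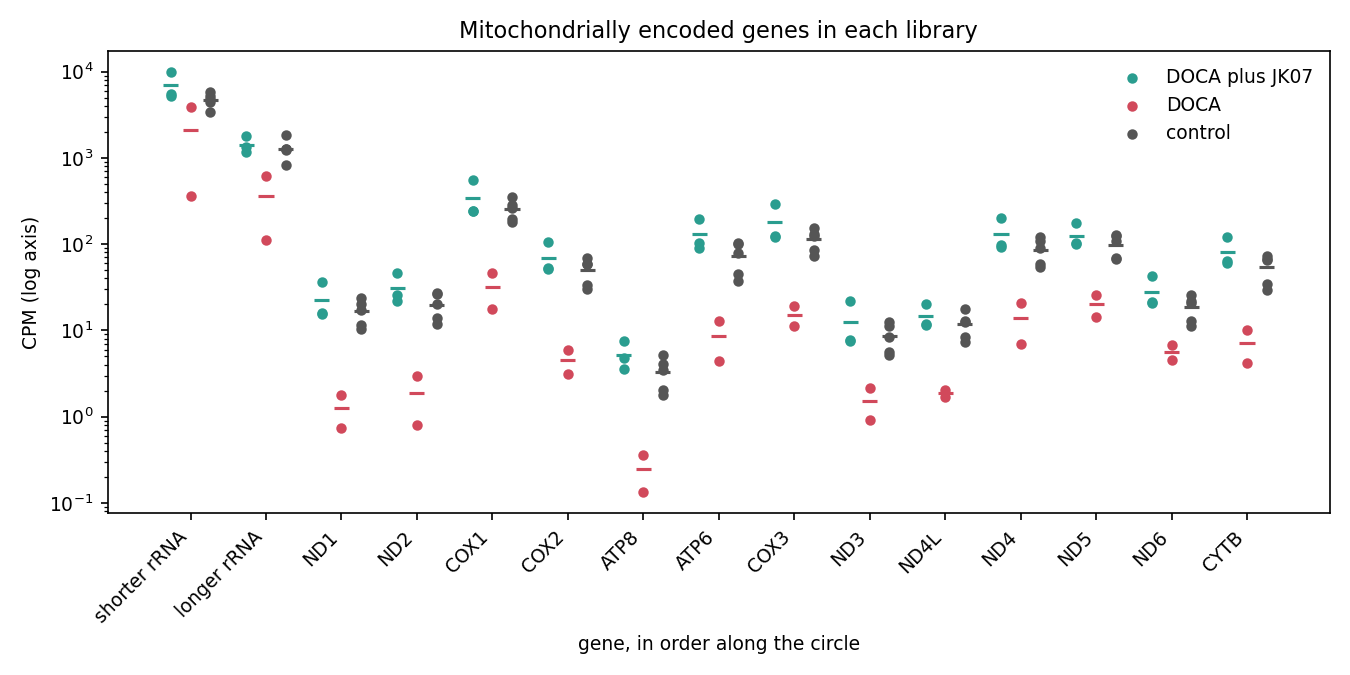
CPM of the 13 protein-coding and 2 rRNA genes in each library, on a log axis, in their order along the circle. Each point is a library, short lines are group means, and each gene shows DOCA plus JK07 (n = 3), DOCA (n = 2) and control (n = 5) from left to right. The DOCA points are below all others in each gene but the shorter rRNA gene, where DOCA library 6, at 3889 CPM, is within the control range of 3419 to 5874 CPM.

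The order of levels was compared per length, in TPM, the deposited abundance corrected for gene length and library size. With DOCA plus JK07 the shorter rRNA averaged 13332 ± 8167 TPM and the longer rRNA 1629 ± 734 TPM (SD, n = 3), followed by COX3 with 432 ± 333 TPM and COX1 with 420 ± 309 TPM. Their wide spread came with library 10, and ND1 was last with 44.9 ± 33.98 TPM. In DOCA the shorter rRNA averaged 1805 ± 1826 TPM and the longer rRNA 197 ± 142 TPM (SD, n = 2), and the protein-coding genes ran from COX1 with 19.2 ± 5.10 TPM to ATP8 with 1.09 ± 0.334 TPM. In control the rRNAs averaged 7373 ± 1505 and 1206 ± 306 TPM (SD, n = 5). The protein-coding genes followed from COX1 with 245 ± 67.5 TPM, COX3 with 218 ± 71.2 TPM and ATP6 with 163 ± 73.3 TPM, through COX2, ND4, ND5, CYTB, ND4L, ND6, ND3 and ND2, to ND1 with 26.1 ± 9.77 TPM and ATP8 with 24.5 ± 11.3 TPM. In every group the rRNAs were apart from the next gene in the order, and in control neighbours among the 13 protein-coding genes had overlapping ranges. ND6 stood at rank 10 of these 15 genes with DOCA plus JK07, at rank 7 in DOCA, with 10.7 ± 1.38 TPM, and at rank 11 in control.

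DOCA against control is the comparison of the treatment alone. All 13 protein-coding genes fell, by 3.32-fold (ND6) to 13.2-fold (ATP8), and no mitochondrial gene rose. The complex IV genes, the catalytic core of cytochrome c oxidase, fell by 7.55-fold to 10.9-fold, and the complex V genes by 8.51-fold and 13.2-fold. The rRNAs did not pass the test. Among all 17251 genes tested, 19.7% fell and 5.73% rose, and the median log2 fold change was -0.63, against a median of -2.93 over the 13 protein-coding genes.

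Within complex I, ND1 fell 12.99-fold (log2 fold change -3.70 ± 0.61 SE; adjusted p = 0.00184, edgeR's quasi-likelihood test with Benjamini-Hochberg adjustment over all genes tested). ND2 fell 10.4-fold and ND3 fell 5.55-fold. ND4L fell 6.28-fold, ND4 6.19-fold and ND5 4.91-fold. ND6, the gene on the other strand, had the smallest log2 fold change of the 13, -1.73 ± 0.44 SE, with an edgeR adjusted p of 0.0204. The median log2 fold change of the 7 complex I genes was -2.63.

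In complex III, CYTB fell 7.63-fold (-2.93 ± 0.58 SE on the log2 scale; edgeR adjusted p = 0.00533). In complex IV, COX2 fell 10.9-fold (-3.45 ± 0.54 SE; edgeR adjusted p = 0.00125), the smallest p among the 13. COX1 fell 7.97-fold and COX3 7.55-fold. In complex V, ATP6 fell 8.51-fold and ATP8 13.2-fold (-3.72 ± 0.66 SE; edgeR adjusted p = 0.00294). The median log2 fold changes were -2.99 for complex IV and -3.40 for complex V.

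The shorter rRNA had a log2 fold change of -1.16 ± 0.75 SE (edgeR adjusted p = 0.294), and the longer rRNA one of -1.83 ± 0.62 SE (edgeR adjusted p = 0.0608). Over all members, 21 of the 30 tested fell: the 13 protein-coding genes and 8 tRNA genes. Every DOCA library lay below every control library in 29 of the 30, the exception being the shorter rRNA, and this was the case for 27.6% of all genes tested. Of these members, tRNA-04, tRNA-05, tRNA-06 and tRNA-12 were listed at 0 in both DOCA libraries. They could pass the filter on low counts only through the other groups, so their place below control carries no weight. The 7 members not tested overlapped between DOCA and control. No member had both DOCA libraries above every control library, against 10.2% of all genes.

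The depth of the fall differed between the DOCA libraries. Relative to the control mean, the 13 protein-coding genes were 2.77-fold to 9.25-fold lower in library 6 (median 5.73-fold) and 4.15-fold to 24.8-fold lower in library 7 (median 13.1-fold). With 1 DOCA library left out, the other is assumed to vary like the libraries of the other groups, which alone supply the spread. On that assumption 11 of the 13 passed without library 7, ND3 and ND6 not (highest edgeR adjusted p = 0.104), and all 13 without library 6. With limma-voom and quality weights, which give less weight to libraries that deviate, 3 of the 13 were called lower (COX1, COX3 and ND5), at similar log2 fold changes of -3.56 to -1.60 and limma adjusted p of 0.0292 to 0.501 over the 13. Of all 17251 genes tested, that fit called only 94 lower and 67 higher. With edgeR, the split of calls over all genes was 3403 lower and 988 higher. Under upper quartile scaling it was 2868 lower and 1523 higher, and all 13 protein-coding genes still fell (median -2.71 against -0.39 over all genes).

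DOCA plus JK07 against DOCA is the comparison of JK07 on top of the treatment. All 13 protein-coding genes were higher with JK07, by 5.01-fold (ND6) to 20.8-fold (ATP8), with a median log2 fold change of 3.51 against 0.55 over all genes tested. The 2 rRNAs did not pass the test, and no mitochondrial gene was called lower. Of all genes tested, 14.7% were called higher and 2.25% lower in this comparison, and it shares its DOCA libraries with the comparison above, so that the values are given side by side and not as independent.

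ND1 was 17.8-fold higher (4.15 ± 0.64 SE on the log2 scale; edgeR adjusted p = 0.00134) and ND2 16.3-fold higher. The other complex I genes on the plus strand were 6.24-fold (ND5) to 9.38-fold (ND4) higher, and ND6 was the least changed at 2.33 ± 0.48 SE (edgeR adjusted p = 0.00812). CYTB was 11.4-fold higher. COX2 was 15.3-fold higher (3.93 ± 0.57 SE; edgeR adjusted p = 0.000838), COX1 10.8-fold and COX3 11.9-fold. ATP6 was 15.1-fold and ATP8 20.8-fold higher (4.38 ± 0.70 SE; edgeR adjusted p = 0.00169). The shorter rRNA had 1.71 ± 0.82 SE (edgeR adjusted p = 0.200) and the longer rRNA 1.98 ± 0.66 SE (edgeR adjusted p = 0.0684).

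Over all members, 17 of 30 tested were called higher, the 13 protein-coding genes and 4 tRNA genes. Every DOCA plus JK07 library lay above both DOCA libraries in 30 of 30, which was the case for 30.3% of all genes tested, and below them in none, against 9.82%. Here too tRNA-04, tRNA-05, tRNA-06 and tRNA-12, listed at 0 in both DOCA libraries, could pass the filter on low counts only through the other groups. Without library 7, where the spread again comes from the other groups alone, the test called 12 of the 13 protein-coding genes, and ND3 had an adjusted p of 0.0674 (edgeR). With only the 2 groups in the fit, 11 of 13 were called, without ND3 and ND4, where 2255 of 15773 genes tested were higher and 112 lower. With limma-voom and quality weights 0 of 13 were called (limma adjusted p 0.0691 to 0.460). Of all 17251 genes tested, that fit called only 4 lower and 1 higher. All genes split into 388 lower and 2542 higher, against 752 lower and 2095 higher under upper quartile scaling, with all 13 protein-coding genes higher under both.

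DOCA plus JK07 against control compares the doubly treated libraries with those given phosphate-buffered saline. No mitochondrial gene passed the test in either direction, and 0% of all 17251 genes tested did (edgeR). At an unadjusted p under 0.05, 803 genes did, DESeq2 called 65 lower and 51 higher, and limma-voom with quality weights called 0 lower and 8 higher, none of them among the 13 protein-coding genes. All 13 had positive log2 fold changes, 0.30 (ND4L) to 0.82 (ATP6) with a median of 0.58, and in each the groups overlapped. COX2 averaged 69.9 ± 30.5 CPM with DOCA plus JK07 (SD, n = 3) and 49.9 ± 17.1 CPM in control (SD, n = 5), a log2 fold change of 0.49 ± 0.37 SE. ATP6 had 0.82 ± 0.46 SE and the shorter rRNA 0.55 ± 0.61 SE.

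The size of these values depended on library 10, which had the highest value of each protein-coding gene. Without it the 13 log2 fold changes ranged from -0.17 to 0.39 with a median of 0.11, and ND1, COX1, ND3 and ND4L were below 0. A log2 fold change near 0 with standard errors of 0.32 to 0.47 does not show that the groups were alike.

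**Figure D2:**
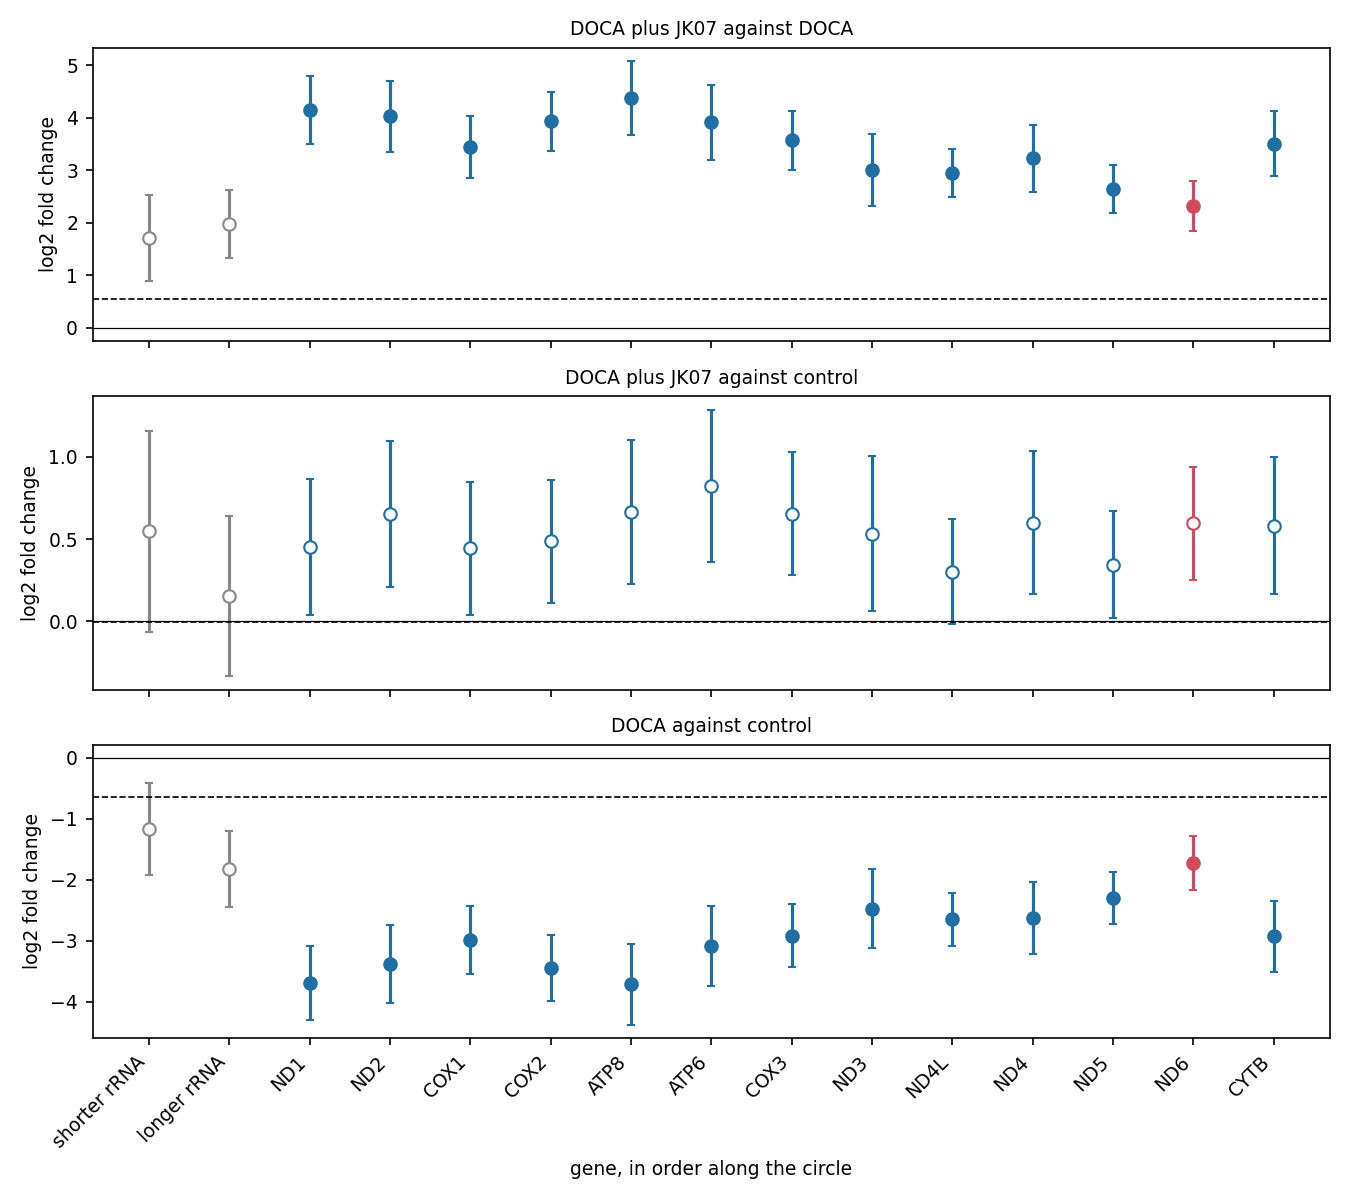
Log2 fold change with its standard error for the 13 protein-coding and 2 rRNA genes in their order along the circle, for DOCA plus JK07 against DOCA, DOCA plus JK07 against control and DOCA against control. Filled points passed the adjusted threshold, open points did not, grey marks the rRNA genes, red marks ND6 on the minus strand, and the dashed line is the median of all genes tested. Against control the DOCA plus JK07 changes of the protein-coding genes lie between 0.30 and 0.82, and those of DOCA between -3.72 and -1.73.

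The makeup of the mitochondrial counts was read within each library, where it does not depend on scaling, but its precision depends on depth. The protein-coding genes gave 11.5, 11.2 and 13.4% in the DOCA plus JK07 libraries, 3.37 and 12.999% in the DOCA libraries and 14.5, 13.2, 8.56, 12.1 and 10.04% in the control libraries of the mitochondrial counts. Library 6 was the lowest and library 7 lay within the control range, so the DOCA libraries did not share a pattern here. The ratio of rRNA to protein-coding counts was 6.47 to 7.88 with DOCA plus JK07, 28.6 in DOCA library 6 and 6.68 in library 7, and 5.89 to 10.7 in control.

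Within the protein-coding counts the DOCA libraries stood apart in complexes I and IV, and not in III and V. Complex I took 31.9, 32.5 and 29.96% in the DOCA plus JK07 libraries, 39.9 and 42.3% in the DOCA libraries and 35.95, 32.3, 31.1, 28.9 and 32.5% in the control libraries. Both DOCA libraries were above every other library, and DOCA plus JK07 overlapped with control in this share. Complex IV took 48.3% to 52.1% with DOCA plus JK07, 45.3% in each DOCA library and 46.3% to 55.6% in control. Complex V took 11.2% to 12.3% with DOCA plus JK07, 8.40% and 6.48% in DOCA and 7.65% to 10.9% in control, so that DOCA overlapped with control and DOCA plus JK07 lay above every library of both. Complex III took 6.62% to 7.50% with DOCA plus JK07, 6.40% and 5.90% in DOCA and 5.70% to 7.24% in control, DOCA again within the control range. No test was made of these shares.

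Inside complex I the shift was not uniform. ND6 took 2.47, 2.42 and 2.33% in the DOCA plus JK07 libraries, 4.27 and 6.38% in the DOCA libraries and 2.64, 2.18, 1.99, 2.15 and 2.49% in the control libraries. ND5 took 11.8, 11.8 and 9.58% in the DOCA plus JK07 libraries, 16.5 and 20.2% in the DOCA libraries and 12.7, 12.5, 12.03, 11.3 and 12.8% in the control libraries. Both genes, which adjoin each other from opposite strands, had a larger share in the DOCA libraries than in any other. ND1 and ND2 together took 4.52, 4.69 and 4.56% in the DOCA plus JK07 libraries, 3.05 and 2.19% in the DOCA libraries and 5.27, 4.53, 4.41, 3.89 and 4.27% in the control libraries, and here the DOCA libraries were the lowest. The ratio of ND1 to ND5 counts was 0.148 to 0.211 with DOCA plus JK07, 0.0689 and 0.0518 in DOCA and 0.154 to 0.193 in control.

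**Figure D3:**
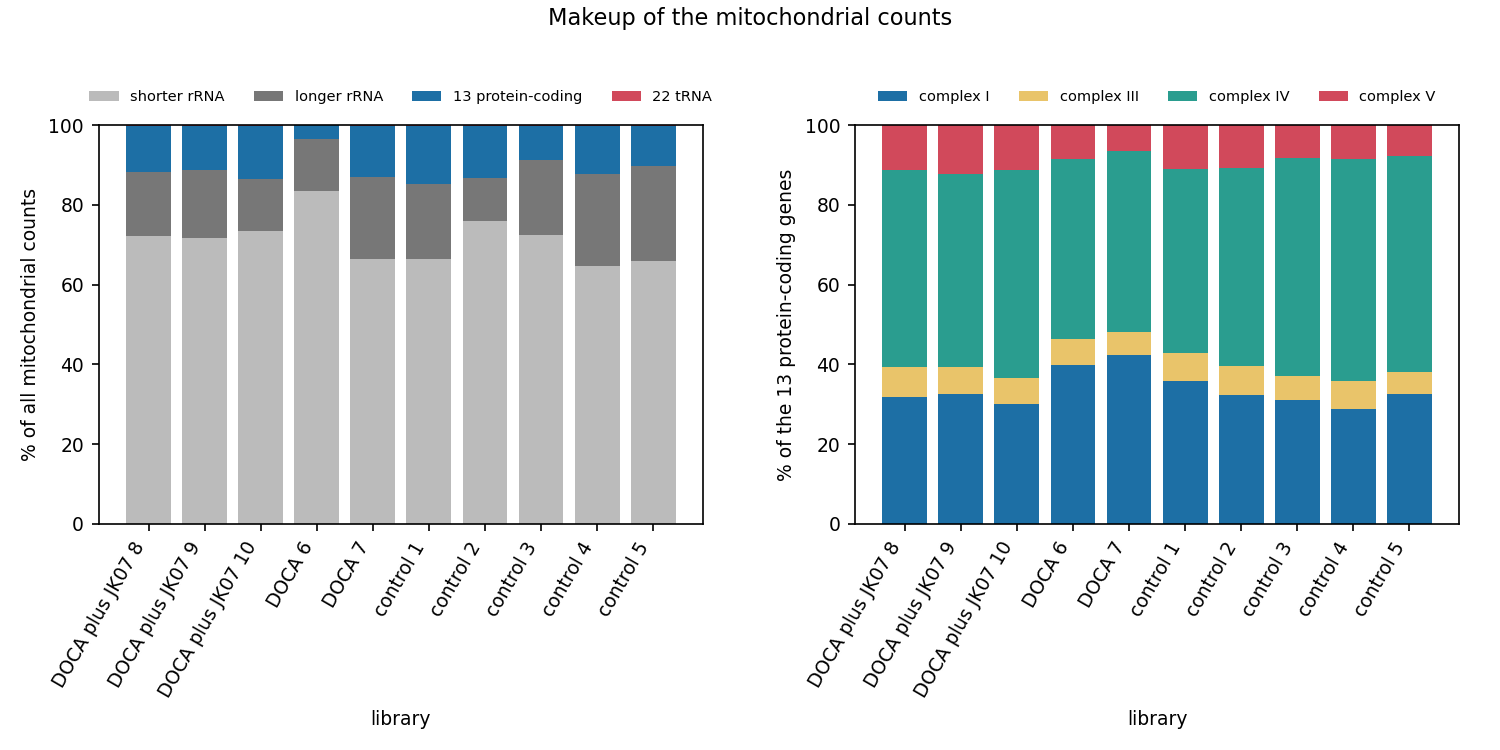
Share of the rRNA, protein-coding and tRNA genes in all mitochondrial counts (left) and of the complexes in the counts of the 13 protein-coding genes (right), one stacked bar per library. The tRNA share, at most 0.218%, is too thin to see. DOCA library 6 has the smallest protein-coding share (3.37%), and complex I is largest in DOCA libraries 6 and 7 (39.9% and 42.3%).

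The changes of the protein-coding genes were also ordered along the circle. In DOCA against control the log2 fold change of the 13 protein-coding genes had a Spearman correlation of 0.78 with their start (n = 13), and 0.76 over the 12 on the plus strand. ATP8, ND1, COX2 and ND2 had the 4 largest falls, and the neighbours from ND3 to ND6 had the 5 smallest, while CYTB, the last, fell by 2.93 on the log2 scale, as much as the median. The 2 rRNA genes, which lie before ND1, ran against this order, with log2 fold changes of -1.16 and -1.83. Over all 30 members tested the correlation was 0.42. These genes share their libraries and their precursor transcripts, so the values are descriptions. For DOCA plus JK07 against DOCA, which shares the DOCA libraries, the correlation was -0.75 over the 13 genes, and for DOCA plus JK07 against control it was -0.07.

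The same values can be read as coverage, from which the counts follow by gene length, so that this is no second observation of the order. Coverage was taken per gene over the mean coverage of the 13 protein-coding genes and then over the control mean of that ratio. ND1 had 0.573 and 0.498 in the DOCA libraries, and ND2 had 0.799 and 0.460. ND5 had 1.39 and 1.60, and ND6 had 1.91 and 2.69. In each of these 4 genes both DOCA libraries lay outside the range of the control libraries, whose widest values were 0.878 and 1.17. For ND4L and ND4 the DOCA libraries disagreed, with 0.912 and 1.62 for ND4L and 1.29 and 0.895 for ND4.

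**Figure D4:**
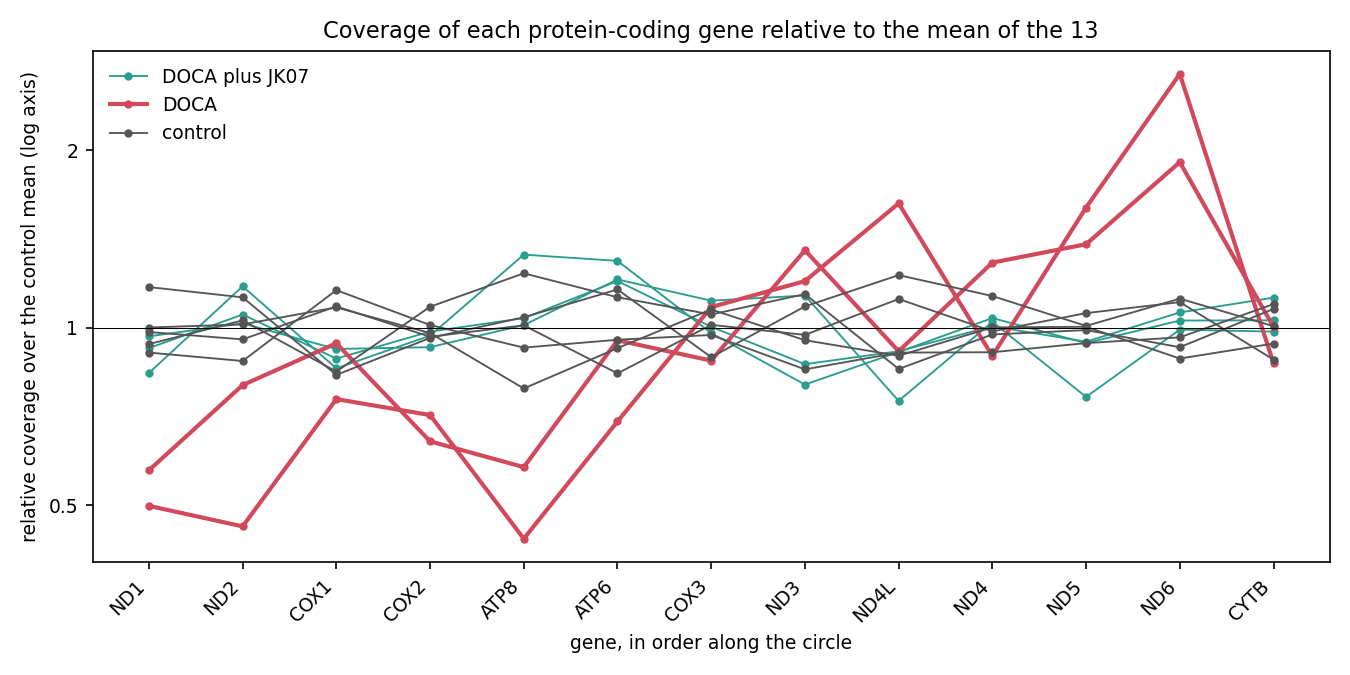
Coverage of each protein-coding gene relative to the mean of the 13, divided by the control mean of that ratio, in order along the circle on a log axis. Each line is a library, green for DOCA plus JK07, red for DOCA and grey for control. The DOCA lines start at 0.573 and 0.498 for ND1, are again low at ATP8 (0.580 and 0.438, from 14 and 4 counts) and reach 1.91 and 2.69 at ND6.

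Neighbouring pairs differed in how stable their ratio was. The ratio of ATP8 to ATP6 counts was 0.0377 to 0.0463 with DOCA plus JK07, 0.0279 and 0.0303 in DOCA and 0.0386 to 0.0544 in control. It was lowest in DOCA, but the DOCA ratios rest on only 14 and 4 counts of ATP8 and are imprecise. The ratio of ND6 to ND5 was 0.204 to 0.243 with DOCA plus JK07, 0.258 and 0.315 in DOCA and 0.165 to 0.208 in control, so it was highest in DOCA. The ratio of ND4L to ND4 was 0.0976 in library 6 and 0.248 in library 7, on either side of the control range of 0.120 to 0.156. Genes on the minus strand made up 3.12% to 3.21% of the protein-coding and tRNA counts with DOCA plus JK07, 4.29% and 6.31% in DOCA and 2.73% to 3.17% in control. On coverage, which gives the short tRNA genes more weight, this share was 12.3% to 14.1% with DOCA plus JK07, 8.11% and 10.2% in DOCA and 9.86% to 12.9% in control, so that DOCA was no longer the highest. A single minus-strand gene, tRNA-12, held 48.0% to 58.9% of the tRNA coverage with DOCA plus JK07 and 28.7% to 47.3% in control. It was listed at 0 in both DOCA libraries. Of all mitochondrial counts the minus-strand genes made up 0.356% to 0.430% with DOCA plus JK07, 0.146% and 0.8295% in DOCA and 0.241% to 0.456% in control, with the DOCA libraries on either side of the others.

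The 22 tRNA genes, numbered here from tRNA-01 to tRNA-22 along the circle because the files name no amino acid for them, deliver amino acids to the mitochondrial ribosome. They gave under 0.22% of mitochondrial counts. The genes are 59 to 75 bp long, no longer than the 75 bases per read that relate counts to coverage, so a count here need not come from a mature tRNA. Counts above 0 were found for 17, 17 and 18 of them in the DOCA plus JK07 libraries, for 12 and 7 in DOCA libraries 6 and 7, and for 17 or 18 in each control library. Library 7 thus listed the fewest tRNA genes, and it was also the shallowest library.

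In all, 17 tRNA genes were above 0 in every library of at least 1 group: tRNA-01, tRNA-03 to tRNA-06, tRNA-09, tRNA-10 and tRNA-12 to tRNA-21. tRNA-02, which lies between the rRNA genes, tRNA-07 and tRNA-08 after ND2, and tRNA-22 at the end of the numbering were listed at 0 in all 10 libraries. tRNA-09, tRNA-10 and tRNA-11, just before COX1, had at most 9 counts and, with those 4, were not tested. The other 15 were tested: 8 fell in DOCA against control, and 4 were higher in DOCA plus JK07 against DOCA.

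tRNA-12 (positions 8059 to 8129, minus strand) lies between COX1 and COX2 and had the highest counts of the tRNA genes outside DOCA. It had 490, 499 and 843 in the DOCA plus JK07 libraries, 0 and 0 in the DOCA libraries and 277, 463, 426, 349 and 222 in the control libraries counts. Both DOCA libraries listed it at 0, so no fold is given for them. The edgeR adjusted p was 0.000064 for DOCA against control and 0.000050 for DOCA plus JK07 against DOCA. Both rest on these zeros, and whether the zeros mean absence of the RNA was not tested. The gene is among the 1569 identifiers listed at 0 in both DOCA libraries and above 0 in the other 8. tRNA-12 was the only tested member whose DOCA plus JK07 libraries all lay above all control libraries, at 0.94 ± 0.33 SE on the log2 scale, an unadjusted p of 0.0209 and an adjusted p of 1 (edgeR), where 3.37% of all genes tested lay above. No tested member had all DOCA plus JK07 libraries below all control libraries, against 2.45% of all genes. Its ratio to COX1 counts was 0.0245 to 0.0257 with DOCA plus JK07 and 0.0155 to 0.0219 in control.

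The next most abundant tRNA genes form the row tRNA-17, tRNA-18 and tRNA-19 between ND4 and ND5. tRNA-17 had 111, 111 and 90 in the DOCA plus JK07 libraries, 19 and 7 in the DOCA libraries and 127, 184, 114, 79 and 102 in the control libraries counts. It fell 4.42-fold in DOCA (-2.14 ± 0.49 SE on the log2 scale; edgeR adjusted p = 0.0120) and was 3.86-fold higher with DOCA plus JK07 than with DOCA (edgeR adjusted p = 0.0284). tRNA-18 and tRNA-19 fell 4.37-fold and 6.996-fold in DOCA. tRNA-16, between ND3 and ND4L, was also lower, with 3 and 1 counts in the DOCA libraries against 32 to 70 counts in control. The remaining called genes, tRNA-04, tRNA-05 and tRNA-06 between ND1 and ND2, were listed at 0 in both DOCA libraries and had 4 to 20 counts in each other library. Their calls rest on these zeros, and they too are among the 1569 identifiers with that pattern.

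tRNA-06 and tRNA-16 were also called higher in DOCA plus JK07 against DOCA, beside tRNA-12 and tRNA-17. tRNA-20, on the minus strand between ND6 and CYTB, had 101 counts in DOCA plus JK07 library 10 and at most 30 in any other library. Against control the 15 tested tRNA genes had DOCA plus JK07 log2 fold changes of -0.60 (tRNA-21) to 1.46 (tRNA-20), none past the test.

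Nuclear genes that run mitochondrial gene expression were followed as a list of 77, all named in the files and tested. In DOCA against control 20 fell and 8 rose, with a median log2 fold change of -0.77 against -0.63 over all genes, and against 19.7% lower and 5.73% higher over all genes. Of the 20 that fell, 15 were listed at 0 in both DOCA libraries. In DOCA plus JK07 against DOCA, 19 were higher (15 of them listed at 0 in both DOCA libraries) and 3 lower, where 14.7% of all genes tested were higher and 2.25% lower. Without library 7, which leaves 1 DOCA library, 9 were lower. In DOCA plus JK07 against control none of the 77 passed the test.

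By role, 2 of 9 genes of mitochondrial DNA transcription fell in DOCA and 2 rose, 5 of 13 RNA processing genes fell and 2 rose, and 3 of 8 genes of RNA stability fell. Of 15 genes of mitochondrial DNA maintenance 1 fell and 2 rose, of 17 mitochondrial aminoacyl-tRNA synthetases 4 fell and 2 rose, and of 15 translation factors 5 fell. Over all genes tested 19.7% fell and 5.73% rose. Of the 20 that fell over all roles, 15 were listed at 0 in both DOCA libraries. The other 5 and all 8 that rose were above 0 in a DOCA library. The smallest adjusted p among those that fell belonged to GFM1, a mitochondrial elongation factor, PNPT1, an RNA-degrading enzyme, and TRMT10C, a subunit of the enzyme that cuts tRNAs at their front end. All 3 were listed at 0 in both DOCA libraries and are among the 1569 identifiers with that pattern that were above 0 in the other 8. Their small adjusted p rests on these zeros, and whether the zeros mean absence of the RNA was not tested. GFM1 had 5.34, 5.12 and 6.57 CPM in the DOCA plus JK07 libraries, 0 and 0 CPM in the DOCA libraries and 7.51, 8.15, 6.77, 6.40 and 5.56 CPM in the control libraries, which leaves DOCA apart from the other libraries.

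Those that rose with the smallest adjusted p were ELAC2, which cuts tRNAs at their other end, MTERF4, which acts in mitochondrial ribosome assembly, and POLG, the mitochondrial DNA polymerase. ELAC2 had 3.16, 4.34 and 4.02 CPM in the DOCA plus JK07 libraries, 14.2 and 6.72 CPM in the DOCA libraries and 2.94, 3.16, 3.69, 3.10 and 3.43 CPM in the control libraries, a log2 fold change of 1.68 ± 0.27 SE in DOCA against control (edgeR adjusted p = 0.00146) and -1.45 ± 0.31 SE in DOCA plus JK07 against DOCA (edgeR adjusted p = 0.00932). MTERF4 averaged 4.62 ± 0.306 CPM with DOCA plus JK07 (SD, n = 3), 8.31 ± 0.159 CPM with DOCA (n = 2) and 4.41 ± 0.223 CPM in control (n = 5). POLG averaged 13.1 ± 1.53 CPM with DOCA plus JK07, 23.6 ± 0.0931 CPM with DOCA and 12.1 ± 1.88 CPM in control. These 3 genes were also the 3 that were lower in DOCA plus JK07 against DOCA. The 3 that were higher there with the smallest adjusted p were GFM1, PNPT1 and MRRF, a ribosome recycling factor, each listed at 0 in both DOCA libraries.

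The polymerase POLRMT, its partner TFAM, which packages and helps start transcription of the circle, and LRPPRC, which stabilises mitochondrial messenger RNAs, were picked after their values were seen. POLRMT had 6.25, 8.13 and 9.06 CPM in the DOCA plus JK07 libraries, 19.96 and 10.4 CPM in the DOCA libraries and 6.13, 5.07, 7.69, 5.002 and 6.17 CPM in the control libraries. It rose in DOCA (1.34 ± 0.27 SE on the log2 scale; edgeR adjusted p = 0.00620), with library 6 higher than library 7. It did not pass the test in DOCA plus JK07 against DOCA (-0.96 ± 0.31 SE; edgeR adjusted p = 0.0610). POLRMT, TFAM and LRPPRC were not examined one by one under the other settings. LRPPRC had 9.64, 7.04 and 8.16 CPM in the DOCA plus JK07 libraries, 4.81 and 3.11 CPM in the DOCA libraries and 14.7, 13.3, 10.3, 11.98 and 10.3 CPM in the control libraries. It fell in DOCA (-1.61 ± 0.26 SE; edgeR adjusted p = 0.00146) and was higher in DOCA plus JK07 against DOCA (1.06 ± 0.26 SE; adjusted p = 0.0224). TFAM had 1.18 to 2.13 CPM with DOCA plus JK07, 1.28 and 0 CPM in DOCA and 1.58 to 4.15 CPM in control, and did not pass the test in DOCA against control (edgeR adjusted p = 0.203).

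The nuclear partners in the same complexes gave a smaller change. Of 80 listed nuclear subunits, 68 were named in the files and tested. In DOCA against control 26 fell and none rose, where 19.7% of all genes tested fell and 5.73% rose. Limma-voom with quality weights called 0 of the 68 lower, and only 94 of all 17251 genes tested. The median log2 fold change was -1.05, against -2.93 for the 13 mitochondrially encoded genes and -0.63 over all genes. For complex I, 8 of 32 nuclear subunits fell (median -1.04, against -2.63 for the 7 mitochondrially encoded). Complex III had 5 of 8 lower (median -1.06, against -2.93 for CYTB), complex IV 6 of 12 (median -1.53, against -2.99) and complex V 6 of 12 (median -0.86, against -3.40). Complex II, succinate dehydrogenase, which is wholly nuclear, had 1 of 4 lower. The difference between the nuclear and the mitochondrially encoded subunits was not tested.

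Of the called subunits with the smallest adjusted p, UQCRC2, a core protein of complex III, had 10.3, 6.48 and 7.96 CPM in the DOCA plus JK07 libraries, 3.15 and 4.48 CPM in the DOCA libraries and 12.3, 15.3, 10.5, 12.7 and 10.3 CPM in the control libraries (-1.69 ± 0.27 SE in DOCA against control; edgeR adjusted p = 0.00156). ATP5PB, of the ATP synthase stalk, had 9.44, 7.56 and 9.64 CPM in the DOCA plus JK07 libraries, 2.94 and 4.92 CPM in the DOCA libraries and 13.2, 16.8, 11.11, 14.4 and 12.7 CPM in the control libraries (-1.80 ± 0.26 SE; edgeR adjusted p = 0.000887). Both were lower in each DOCA library than in any other library. SDHD, the membrane anchor of complex II, had -1.78 ± 0.33 SE (edgeR adjusted p = 0.00350), and NDUFC1 of complex I and COX6A1 of complex IV were listed at 0 in both DOCA libraries.

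In DOCA plus JK07 against DOCA, 15 of 68 nuclear subunits were higher and none lower, where 14.7% of all genes tested were higher and 2.25% lower. Their median log2 fold change was 0.61, near the 0.55 over all genes, against 3.51 for the mitochondrially encoded genes. Those were 5 of 32 in complex I, 2 of 8 in complex III, 5 of 12 in complex IV, 3 of 12 in complex V and 0 of 4 in complex II. UQCRC2 was higher by 1.11 ± 0.28 SE on the log2 scale (edgeR adjusted p = 0.0228) and ATP5PO, a stalk subunit of complex V, by 1.87 ± 0.35 SE (edgeR adjusted p = 0.00456). NDUFC1 and COX6A1, at 0 in both DOCA libraries, had the smallest adjusted p in complexes I and IV. Against control, no nuclear subunit passed the test with DOCA plus JK07, and the median was -0.37, against 0.58 for the mitochondrially encoded genes.

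**Figure D5:**
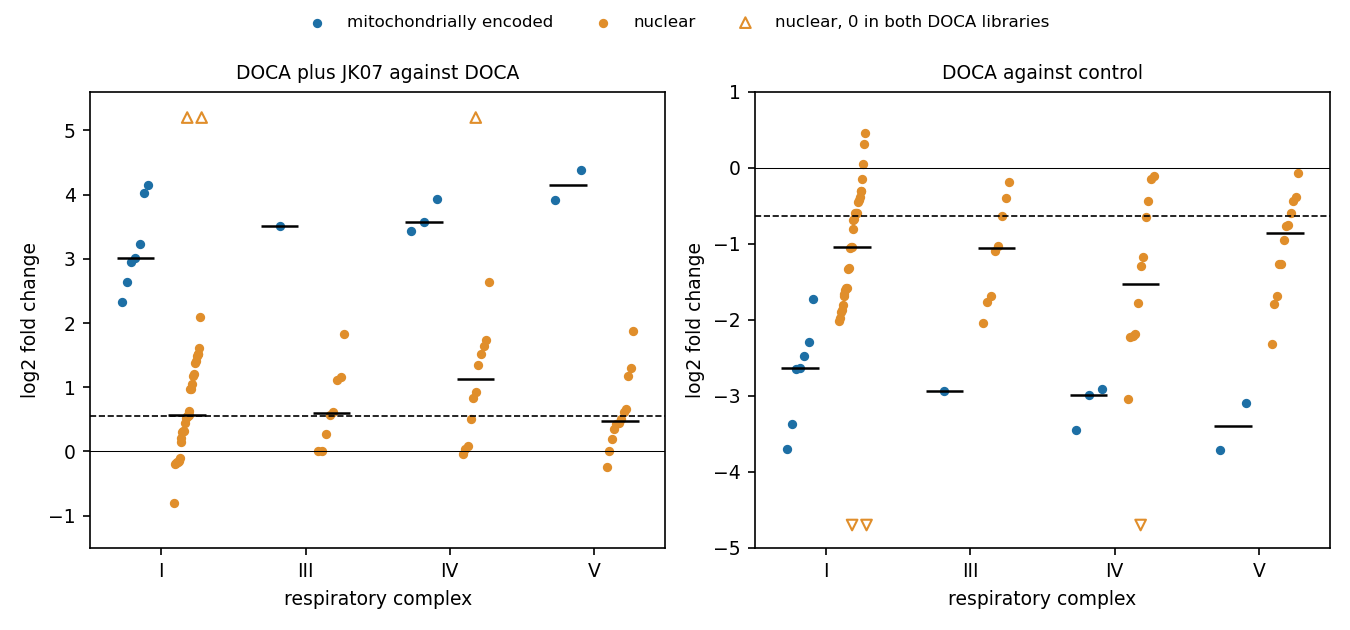
Log2 fold change of the mitochondrially encoded (blue) and nuclear (orange) subunits of each respiratory complex, for DOCA plus JK07 against DOCA (left) and DOCA against control (right). Each point is a gene, short lines are medians, the dashed line is the median of all genes tested, and open triangles at the panel edge are genes listed at 0 in both DOCA libraries, whose fold has no size. The medians in DOCA against control are -2.63 and -1.04 in complex I and -3.40 and -0.86 in complex V, mitochondrially encoded first.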

How the data were processed

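The submitters' processing notes name StringTie, SAMtools and edgeR and the build Sscrofa11.1, and the sources used here do not give their versions, the aligner, the annotation or the strand setting. The deposited abundance tables hold, per the file headers, a coverage signal, FPKM and TPM for each gene and library. A further deposited table holds estimated counts in whole numbers for the 10 libraries but names no genes. Sorting the gene identifiers put its zeros where the abundance tables have theirs in 99.998% of values, against 62.6% with the identifiers moved by 1 line. The coverage nearest to each of the 10 count columns was that of its own library, and member counts of 100 or more were within 0.729% of coverage times length over 75.

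The counts were scaled by TMM, filtered with filterByExpr and fitted in 1 model of all 10 libraries (edgeR 4.0.16 quasi-likelihood test, R 4.3.3). Calls used p-values adjusted by Benjamini-Hochberg over all 17251 genes tested, at 0.05. CPM are per M counts of TMM-scaled library size, rRNA scaffolds included, and an ± without a name is a standard error on log2 scales. Alternatives used DESeq2 1.42.0 and limma 3.58.1, with limma also run on log2(TPM + 1) and log2(TPM + 0.1). FPKM entered no test. No libraries had identical counts. Tested on simulated data, the fit of DOCA against control returned median changes near those simulated but called a minority of the changed genes.

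The members and the gene lists were chosen with earlier results of these data known. All 37 members are accounted for. Values per library are given for the protein-coding and rRNA genes, and tRNA genes are named when above 0 in every library of at least 1 group. Of the nuclear genes of mitochondrial gene expression the 3 with the smallest adjusted p per direction are named, and of the nuclear subunits the called one with the smallest adjusted p in each complex.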

Additional observations from a re-analysis of the deposited data

Results flagged for a closer look

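In 3 of 56 values tested, 1 control library stood apart from the other 4, its gap to the nearest being over 0.71 of the control range. Chance gives this in about 1 in 20 groups. Control library 2 had a COX2 share of 6.80% of the protein-coding counts, above the 5.81% to 6.03% of the other control libraries. The same library had a ratio of the shorter to the longer rRNA of 7.20, against 2.76 to 3.85 in the other control libraries. Control library 1 had a ratio of ND1 to ND5 counts of 0.193, against 0.154 to 0.166 in the others. The groups of 2 and 3 libraries were not tested in this way.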

How the results depend on the processing

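All 13 protein-coding genes were called lower in DOCA against control and higher in DOCA plus JK07 against DOCA under every scaling and filter tried, with DESeq2 and in both TPM fits. The exceptions were the fits without library 7 or with only the 2 groups, given above, and limma-voom with quality weights. The last called 3 members lower in DOCA against control and 0 higher in DOCA plus JK07 against DOCA. Of all 17251 genes tested it called 94 lower and 67 higher in the first comparison and 4 lower and 1 higher in the second. It called 0 genes of mitochondrial gene expression lower and 1 higher, and 0 nuclear subunits lower, in DOCA against control, and 0 of either list in DOCA plus JK07 against DOCA. Limma on log2(TPM + 1) and on log2(TPM + 0.1) called 29 and 30 members higher in DOCA plus JK07 against DOCA. In DOCA against control these fits called 37 and 39 genes of mitochondrial gene expression lower, 2 and 1 higher, and 46 and 48 nuclear subunits lower. Of all 17251 genes tested they called 4933 and 5681 lower and 258 and 221 higher. In DOCA plus JK07 against DOCA they called 36 and 38 genes of mitochondrial gene expression higher and 0 lower, and 36 and 40 nuclear subunits higher. Of all 17251 genes tested they called 5536 and 6031 higher there and 90 and 53 lower. Genes of mitochondrial gene expression called lower in DOCA plus JK07 against DOCA numbered 5 under upper quartile scaling, 5 with the total outside scaffolds and mitochondrial genome as library size, 8 with DESeq2 and 0 with only the 2 groups compared, where 4 nuclear subunits were higher. In the same order, all genes called lower numbered 752 of 17251, 466 of 17193, 1134 of 19585 and 112 of 15773, and 2255 of the last were higher. DESeq2 called 1 nuclear subunit lower in DOCA plus JK07 against control, and 65 of 19585 genes. The causes were not tested.

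Leaving out 1 library at a time, members called lower in DOCA against control numbered 14 (without library 7) to 21. Genes of mitochondrial gene expression called higher in DOCA against control numbered 3 (without library 6) to 8. In DOCA plus JK07 against DOCA, 3 to 9 of them were lower (9 without library 7) and 18 to 29 higher (29 without library 6), and 9 (without library 8) to 19 nuclear subunits were higher. In DOCA plus JK07 against control the log2 fold changes ranged from -0.039 to 0.32 for the longer rRNA, -0.081 to 0.67 for ND1, -0.059 to 0.64 for COX1, -0.17 to 0.79 for ND3 and -0.020 to 0.50 for ND4L, each lowest without library 10. No paired analysis was possible because the groups share no replicate number.

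The mean mitochondrial share of counts was 5.86% with DOCA plus JK07 and 4.67% in control outside the scaffolds, 1.14% and 0.717% of all counts, and 11.8% and 9.22% of TPM outside the scaffolds. With the rRNA genes left out of the sum, the protein-coding share of mitochondrial counts was 98.7% with DOCA plus JK07, 99.0% with DOCA and 98.5% in control. On coverage in place of counts, complex I took 29.96% of the protein-coding sum with DOCA plus JK07, and ND6 took 4.48% with DOCA plus JK07, 10.05% with DOCA and 4.36% in control. The correlation with position over the 13 protein-coding genes, set beside all 30 members, was 0.78 against 0.42 in DOCA against control, -0.75 against -0.33 in DOCA plus JK07 against DOCA and -0.071 against 0.02 in DOCA plus JK07 against control. Depth limits the DOCA values: library 7 held 16155 mitochondrial counts and as few as 4 for a protein-coding gene.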
